A study of Mus musculus with 15 samples.

Results

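The sirtuins are the 7 mammalian relatives of yeast Sir2, and they were taken here as the probe sets whose single platform gene symbol is Sirt1 to Sirt7. Each of the 7 genes had 1 probe set, out of 21789 probe sets with 1 symbol and 35556 in all. All 7 passed a filter on dim signal, so each was among the 12056 genes tested. The arrays came from the gastrocnemius, a calf muscle, of 12-month-old C57BL/6 males, 1 mouse to an array, so replicates were separate animals. There were 3 wildtype mice on control diet, 4 wildtype mice on calorie restriction (CR), 4 Sirt3 knockout mice on control diet and 4 Sirt3 knockout mice on CR. The labels do not say which exons the knockout lacks, whether the allele is absent from all tissues, or how severe and how long the restriction was. Values are deposited log2 intensities, so 1 unit is a ratio of 2 in signal, and 3 or 4 arrays per group limit the precision of every comparison.

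Sirtuins remove acetyl and other acyl groups from lysines and consume NAD in doing so, which ties their activity to the energy state of the cell. SIRT1, SIRT6 and SIRT7 are mainly nuclear, SIRT2 is mainly cytoplasmic, and SIRT3, SIRT4 and SIRT5 are mitochondrial. In muscle SIRT3 is the main deacetylase of the mitochondrial matrix, and sirtuins as a family have long been studied as possible mediators of CR. The comparisons ask how the transcript of each sirtuin differed with the diet, with the loss of Sirt3, and with both together.

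The promoter sequences shown are credited to the RefSeq table of build GRCm38.p6, and no relation between them and the array values was tested. Each window runs from 250 bases before a start site to 50 bases after it, and all 7 sirtuins matched the table, with 9 windows between them. The first is shown because Sirt3 starts 85 bases from Psmd13, a proteasome subunit gene read in the opposite direction, so that their windows overlap. The Sirt3 window is chr7:140882260-140882559 on the minus strand, and the capitals mark the 184 bases that it shares with the Psmd13 window.
Sirt3: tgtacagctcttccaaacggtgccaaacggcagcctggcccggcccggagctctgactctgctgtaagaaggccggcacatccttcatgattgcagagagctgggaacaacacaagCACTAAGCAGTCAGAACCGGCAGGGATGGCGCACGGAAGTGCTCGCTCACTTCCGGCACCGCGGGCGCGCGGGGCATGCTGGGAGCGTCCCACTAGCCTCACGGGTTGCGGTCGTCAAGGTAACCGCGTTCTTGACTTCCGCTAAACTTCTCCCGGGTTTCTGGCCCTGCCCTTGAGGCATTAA
The windows of Sirt2 (chr7:28766502-28766801, plus strand), Sirt4 (chr5:115484248-115484547, minus strand) and Sirt5 (chr13:43365285-43365584, plus strand) are shown because these transcripts were the most correlated of the 7 across arrays. Capitals mark matches to any of the motifs searched for.
Sirt2: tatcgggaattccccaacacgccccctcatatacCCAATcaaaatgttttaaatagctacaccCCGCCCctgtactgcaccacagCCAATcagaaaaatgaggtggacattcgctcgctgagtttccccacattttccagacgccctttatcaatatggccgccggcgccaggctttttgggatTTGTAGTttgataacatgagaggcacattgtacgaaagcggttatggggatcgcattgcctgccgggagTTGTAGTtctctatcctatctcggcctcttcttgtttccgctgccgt
Sirt4: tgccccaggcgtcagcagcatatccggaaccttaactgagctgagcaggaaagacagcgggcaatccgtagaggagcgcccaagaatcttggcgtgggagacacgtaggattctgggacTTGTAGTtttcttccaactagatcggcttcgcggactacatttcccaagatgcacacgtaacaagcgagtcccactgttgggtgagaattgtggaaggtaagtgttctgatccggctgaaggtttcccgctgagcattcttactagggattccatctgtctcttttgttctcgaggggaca
Sirt5: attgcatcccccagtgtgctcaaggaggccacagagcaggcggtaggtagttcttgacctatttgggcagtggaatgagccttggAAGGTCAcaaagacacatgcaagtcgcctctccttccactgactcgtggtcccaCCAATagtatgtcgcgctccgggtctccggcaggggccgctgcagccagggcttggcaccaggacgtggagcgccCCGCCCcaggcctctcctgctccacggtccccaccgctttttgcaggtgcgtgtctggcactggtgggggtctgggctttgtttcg
In all, 9 motifs were searched for on both strands, each given with its share of all windows. ACTACAA, the core of the ZNF143 element, occurred in the windows of Sirt2 and Sirt4 and in 3.24% of all 32851 windows. CCGGAAG, a site for ETS factors, occurred in windows of Sirt3, Sirt6, Sirt7 and Psmd13 and in 8.86% of all windows, and the Sirt3 and Psmd13 match is 1 site inside the shared bases. CACGTG, the E-box, occurred only in the Sirt1 window among the sirtuins and in 7.15% of all windows. These are matches of letters and not measured binding sites. AAGGTCA, an element of nuclear receptors, occurred among the sirtuins only in the Sirt5 window and in 4.72% of all windows, and the NRF1 site only in a Sirt6 window and in 0.971%. GGGCGG, the GC box, lay in windows of Sirt1, Sirt2, Sirt3, Sirt5, Sirt6 and Sirt7 and in 35.7% of all windows, and CCAAT in windows of Sirt2, Sirt3 and Sirt5 and in 37.4%. No sirtuin window held TATAAA, the TATA box, or TGACGTCA, the CRE of cAMP signalling, which occurred in 13.6% and 1.79% of all windows.

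The mean of 10 defining skeletal muscle transcripts, such as Ckm and Acta1, lay within -0.14 and 0.09 of the median array on all 15 arrays. Some arrays also held RNA typical of other organs. For 20 male germ cell markers, wildtype control replicate 3 exceeded the median array by 4.05 and knockout control replicate 1 did so by 3.46. For 10 pancreatic acinar markers wildtype control replicate 2 exceeded it by 7.06 and the other two wildtype control arrays by 0.58 and 0.75, and for 15 liver markers wildtype CR replicate 4 did so by 2.67. For several results, values that leave out the 2 germ cell arrays or all 4 of these arrays are given beside them. Without all 4, the wildtype control group holds only replicate 1, so its mean is that of a single mouse. That array itself exceeded the median array by 1.54 for the liver markers and 0.58 for the acinar markers.

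Sirt3 was the only gene of 12056 tested that was lower on all 8 knockout arrays than on all 7 wildtype arrays (0.00829% of genes), and it was also the only one of 19938 genes without the filter. On control diet the wildtype arrays read 6.68, 6.49 and 6.65, and the knockout arrays read 6.12, 6.19, 5.36 and 5.02. On CR the wildtype arrays read 6.43, 6.53, 6.51 and 6.38, and the knockout arrays read 4.94, 6.05, 5.50 and 5.41. The wildtype values lay close together, while the knockout values split into 3 arrays above 6 and 5 arrays at 5.50 or below, with a gap of 0.55 between them. Both diets had arrays of either kind. Relative to the wildtype mean on the same diet, the signal left was 75.0%, 71.2% and 75.3% on the 3 higher arrays, and from 33.4% to 51.5% on the other 5. Of the 8 knockout values, 2, 5.02 and 4.94, lay below the filter value of 5.32. The shares are of signal and cannot be read as shares of transcript left. The 5 lower arrays, from 4.94 to 5.50, lay near or below the filter value, which limits how low a signal can be measured. Whether the probe set lies in the deleted part is not given by the sources used here.

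**Figure D1:**
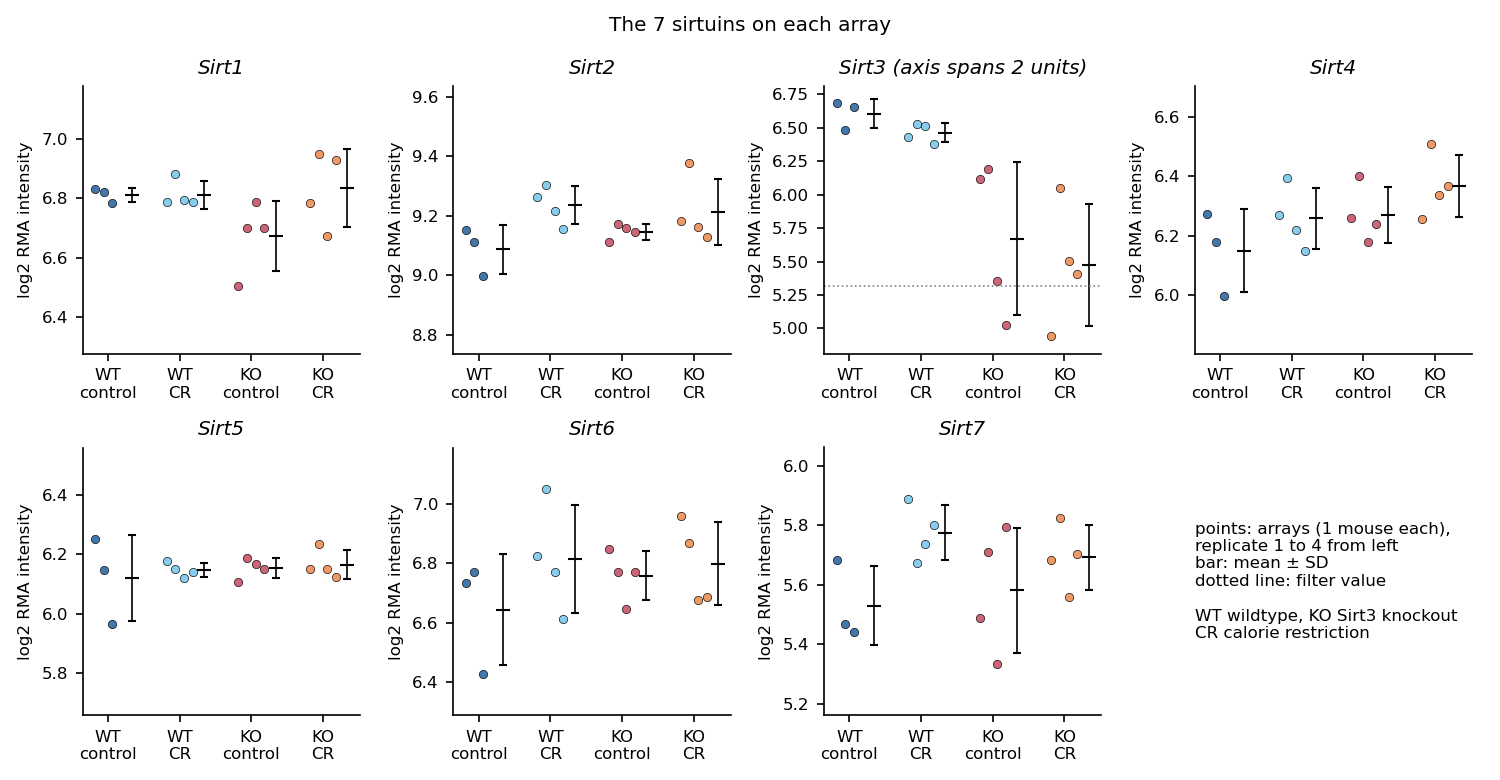
Log2 RMA intensity (vertical axes) of the 7 sirtuins on each array, by genotype and diet (horizontal axes). Points are single arrays, bars are the group mean ± SD, and all panels span 0.9 log2 units except Sirt3, which spans 2. The 7 wildtype arrays for Sirt3 lie between 6.38 and 6.68 and the 8 knockout arrays between 4.94 and 6.19, while the groups of every other sirtuin lie close together.

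Averaged over diets, Sirt3 was -0.96 (SE 0.18, 95% confidence interval -1.35 to -0.57) in knockout relative to wildtype mice. An exact two-sided permutation of genotype within each diet gave p = 0.00122, from 3 of 2450 splits, with Sirt3 lower on 8 of 8 knockout arrays. Within a diet the exact permutation p was 0.0857 on control diet (35 splits), which did not pass, and 0.0286 on CR (70 splits). In limma the difference ranked 3 of 12056 by p, but with an adjusted p of 0.318 it did not pass over all genes, as 0% of genes did in this comparison and 7.18% had an unadjusted p under 0.05. The difference was -0.93 (limma adjusted p = 0.599) on control diet and -0.99 (limma adjusted p = 0.605) on CR, where 0% and 0.0166% of genes passed and 7.03% and 5.92% had an unadjusted p under 0.05. The knockout arrays lay below the wildtype arrays without overlap on each diet, as for 1.29% of genes on control diet and 2.76% on CR, while 3.71% and 1.84% of genes lay above. The SD within groups was 0.52 between knockout arrays and 0.087 between wildtype arrays, and over all arrays the within-group SD of Sirt3, 0.39, exceeded that of 95.3% of the genes tested. The large spread of the knockout arrays enters the limma error, and without knockout CR replicate 2 the adjusted p was 0.110, the lowest over the alternatives.

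The marker lists differed between the 3 knockout arrays with the higher Sirt3 signal. Relative to the median array, the germ cell list stood at 3.46 on knockout control replicate 1, 0.75 on knockout control replicate 2 and -0.25 on knockout CR replicate 2. The liver list stood at 0.67 and 1.67 on the first and second of these and at the median on the third, and the adipocyte list at -0.18, -0.026 and 1.02. No list was high on all 3, and their part in the Sirt3 signal was not tested. Without the 2 germ cell arrays the genotype difference was -1.02 (exact permutation p = 0.00571). Without the 4 arrays, which leaves only replicate 1 in the wildtype control group, it was -1.09.

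Psmd13 did not share the pattern of Sirt3. It read 7.97, 8.07 and 8.03 on wildtype control arrays, and between 8.17 and 8.53 on the other 12 arrays, so the wildtype control group lay below every other array. Its difference in knockout mice was 0.26 (SE 0.083) on control diet and -0.065 (SE 0.077) on CR, and CR differed from control diet by 0.34 (SE 0.083) in wildtype and 0.014 (SE 0.077) in knockout mice. None of these passed in limma (adjusted p of 0.145 or more). Of all genes tested, 9.55% were higher without overlap on CR in wildtype mice, and 3.71% were so in knockout mice on control diet. The share of genes with wildtype control below every other array was not computed. Means of 2 marker lists also set the 3 wildtype control arrays apart. The 8 tendon markers stood at 0.25 to 0.57 above the median array there and at 0.13 or below on the other 12, and the 10 acinar markers at 0.58 to 7.06 and at 0.12 or below. Their part in the Psmd13 values was not tested. Cox8b, a cytochrome c oxidase subunit gene on the far side of Psmd13, and the stress-responsive transcription factor gene Atf5 were the only 2 genes higher on all knockout than on all wildtype arrays (0.0166% of genes), and were named after their values were seen. Cox8b lay between 12.41 and 12.76 on knockout arrays and between 12.07 and 12.37 on wildtype arrays, and Atf5 between 6.97 and 7.58 and between 6.66 and 6.95.

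**Figure D2:**
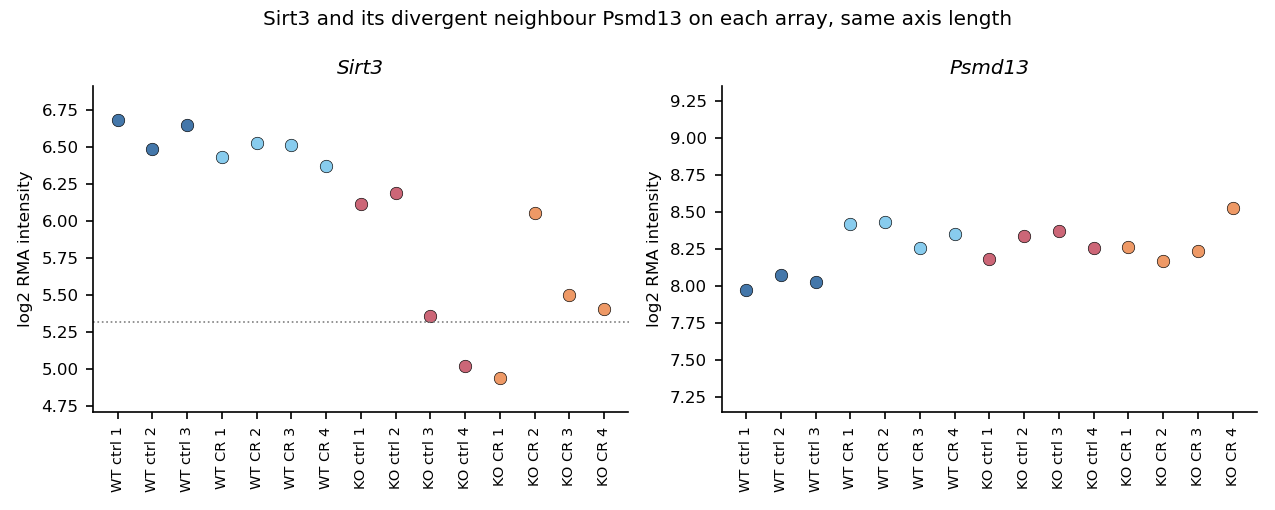
Log2 RMA intensity (vertical axes) of Sirt3 and Psmd13 on each of the 15 arrays (horizontal axes), with both axes spanning the same length and the dotted line at the filter value of 5.32. The Sirt3 points of the 8 knockout arrays all lie below those of the 7 wildtype arrays, and 3 of them lie above 6, while the lowest Psmd13 points are the 3 wildtype control arrays.

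None of the 7 sirtuins passed in limma for CR averaged over genotypes, where 1.07% of genes did, although 6 of the 7 had a positive difference. At an unadjusted p under 0.05 there were 2, both higher on CR, where 20.1% of all genes fell. The median difference of the 7 was 0.10, against 0.029 over all genes tested, so genes in general leaned the same way. Without the 2 germ cell arrays the differences of Sirt1 to Sirt7 were, in order, 0.046, 0.078, -0.085, 0.063, -0.028, 0.066 and 0.14. Sirt5 then also had a negative difference. In muscle samples such as these, a change in the share of a cell type and a change of RNA per cell cannot be told apart. CR was also tested in each genotype. It passed for 0 sirtuins in wildtype mice (0.124% of genes) and for 0 in knockout mice (0.0664%), with 2 and 1 at an unadjusted p under 0.05 against 13.1% and 12% of genes.

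Among the nuclear sirtuins, Sirt7 encodes a nucleolar deacetylase. Sirt7 had the lowest mean signal of the 7, at 5.65, near the filter value of 5.32. It read 5.68, 5.47 and 5.44 on wildtype control arrays and 5.89, 5.67, 5.74 and 5.80 on wildtype CR arrays. In knockout mice it read 5.49, 5.71, 5.33 and 5.80 on control diet and 5.68, 5.83, 5.56 and 5.70 on CR. In wildtype mice 3 of the 4 CR arrays lay above all 3 controls and the fourth lay just below the highest of them, and in knockout mice the groups overlapped over most of their range. Its averaged difference was 0.18 (SE 0.073, 95% confidence interval 0.022 to 0.33, limma adjusted p = 0.203), with 0.25 (SE 0.11) in wildtype and 0.11 (SE 0.099) in knockout mice. Without the 4 arrays the averaged difference was 0.082 and the wildtype difference 0.084, with only replicate 1 left in the wildtype control group.

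Sirt1, which deacetylates transcription factors and coactivators of oxidative metabolism, was nearly constant in wildtype muscle. It read 6.83, 6.82 and 6.78 on control diet and 6.79, 6.88, 6.79 and 6.79 on CR. In knockout mice it read 6.51, 6.70, 6.79 and 6.70 on control diet and 6.79, 6.95, 6.67 and 6.93 on CR. The wildtype arrays lay between 6.78 and 6.88 and the knockout arrays between 6.51 and 6.95, with knockout control replicate 1, a germ cell array, lowest of all 15. CR differed by 0.0012 (SE 0.079, limma adjusted p = 0.995) in wildtype mice and by 0.16 (SE 0.073, limma adjusted p = 0.405) in knockout mice. The difference between these responses was 0.16 (SE 0.11, limma adjusted p = 0.913) and did not pass. Without the 2 germ cell arrays the knockout response was 0.11 (SE 0.071, limma adjusted p = 0.550) and did not pass either.

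Sirt6, a histone deacetylase that represses glycolytic genes, overlapped between all groups. It read 6.73, 6.77 and 6.43 on wildtype control, 6.83, 7.05, 6.77 and 6.61 on wildtype CR, 6.85, 6.77, 6.64 and 6.77 on knockout control, and 6.96, 6.87, 6.68 and 6.69 on knockout CR arrays. Wildtype control replicate 3 was lowest and wildtype CR replicate 2 highest. The group means were 6.64 ± 0.19 (SD, n = 3) and 6.81 ± 0.18 (SD, n = 4) in wildtype mice on control diet and CR, and 6.76 ± 0.084 and 6.80 ± 0.14 (SD, n = 4 each) in knockout mice. The averaged difference with CR was 0.11 (SE 0.075, limma adjusted p = 0.431), and the response was 0.17 (SE 0.11) in wildtype and 0.039 (SE 0.10) in knockout mice. Leaving out wildtype control replicate 3 alone gave 0.051 averaged and 0.063 in wildtype mice, and leaving out wildtype CR replicate 2 alone gave 0.066 and 0.092.

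Sirt2, whose product deacetylates tubulin and cytoplasmic enzymes, was the only sirtuin whose wildtype CR and control arrays did not overlap. It read 9.15, 9.11 and 8.996 on control diet and 9.26, 9.30, 9.22 and 9.15 on CR, so the lowest CR array lay barely above the highest control array. Of all genes tested, 9.55% were higher on CR without overlap in wildtype mice, and 2.95% were lower, so 1 of 7 sirtuins is near that background. The tendon and acinar lists also separated these 2 groups without overlap, at 0.25 or more and 0.58 or more on wildtype control against at most 0.086 and 0.12 on wildtype CR. So did, narrowly, a list of 12 macrophage and leukocyte markers, at 0.028 or more against at most 0.018. The part of these lists in the Sirt2 values was not tested. In knockout mice it read 9.11, 9.17, 9.16 and 9.15 on control diet and 9.18, 9.38, 9.16 and 9.13 on CR, where the groups overlapped, as for every sirtuin in knockout mice, against 3.91% of genes higher and 3.08% lower on CR without overlap. The difference with CR was 0.15 (SE 0.068, limma adjusted p = 0.376) in wildtype mice, 0.066 (SE 0.063, limma adjusted p = 0.695) in knockout mice and 0.11 (SE 0.047, limma adjusted p = 0.225) averaged.

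Among the mitochondrial sirtuins, CR left Sirt3 at -0.17 (SE 0.18, 95% confidence interval -0.56 to 0.22) averaged over genotypes, and this average was -0.085 without the 2 germ cell arrays. In wildtype mice the response was -0.14 (SE 0.27), with means of 6.61 on control diet and 6.46 on CR. In knockout mice it was -0.20 (SE 0.25). These SEs share 1 spread over all groups, and the SD within groups was 0.52 between knockout and 0.087 between wildtype arrays. Sirt4, which encodes a lipoamidase and ADP-ribosyltransferase acting on pyruvate dehydrogenase and glutamate dehydrogenase, had its highest mean in knockout mice on CR and its lowest in wildtype mice on control diet. It read 6.27, 6.18 and 6.00 on wildtype control, 6.27, 6.40, 6.22 and 6.15 on wildtype CR, 6.26, 6.40, 6.18 and 6.24 on knockout control, and 6.26, 6.51, 6.34 and 6.37 on knockout CR arrays. Neighbouring groups in this order overlapped. Sirt4 was 0.10 (SE 0.059, limma adjusted p = 0.330) higher on CR and 0.11 (SE 0.059, limma adjusted p = 0.701) higher in knockout mice, and neither difference passed. With the 2 germ cell arrays left out the difference with CR was 0.063 and the knockout difference 0.078, and with all 4 arrays left out they were 0.058 and 0.036. Sirt5, which encodes the main desuccinylase and demalonylase of mitochondria, had the lowest within-group SD of the 7 over all arrays. That SD of 0.070 was at or above that of only 5.05% of genes, and 4 arrays held the same Sirt5 value. Its within-group SD was 0.042 between knockout and 0.093 between wildtype arrays. In wildtype mice Sirt1, Sirt2 and Sirt3 had lower SDs (0.039, 0.071 and 0.087), and Sirt4, Sirt6 and Sirt7 had higher ones. Sirt5 read 6.25, 6.15 and 5.97 on wildtype control, 6.18, 6.15, 6.12 and 6.14 on wildtype CR, 6.11, 6.19, 6.17 and 6.15 on knockout control, and 6.15, 6.24, 6.15 and 6.12 on knockout CR arrays. Both the highest and the lowest value were in the wildtype control group, and the group means lay between 6.12 and 6.17. The difference with CR was 0.019 (SE 0.044, 95% confidence interval -0.076 to 0.11), an interval that corresponds to ratios between 0.949 and 1.08.

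**Figure D3:**
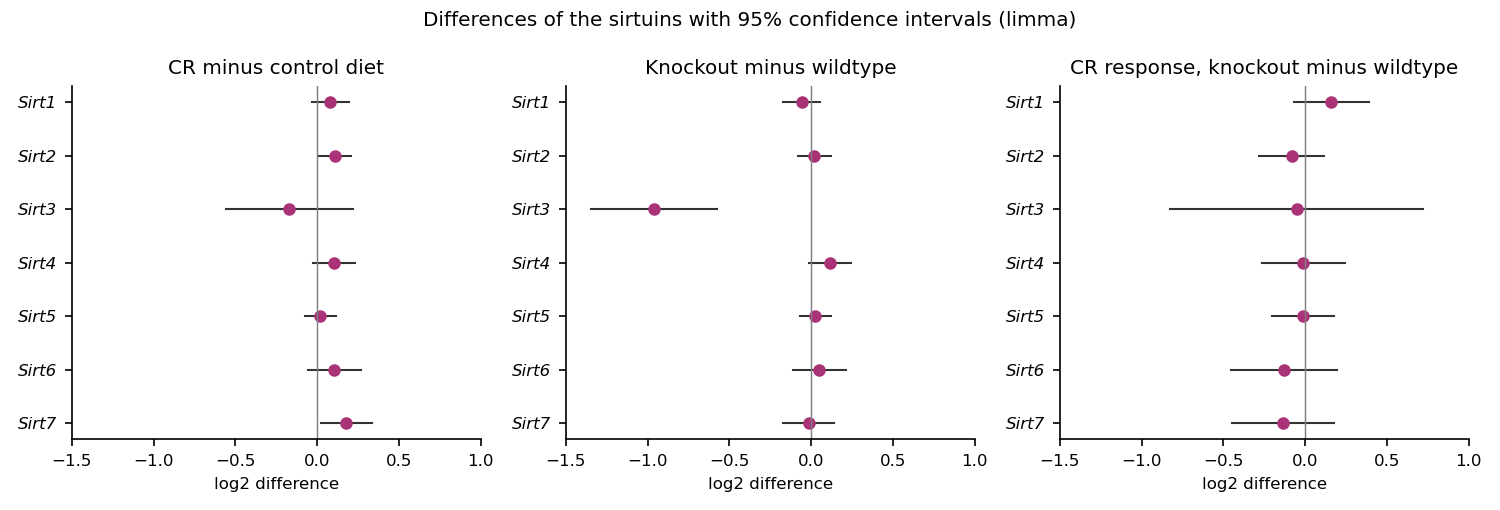
Log2 differences (horizontal axes) of the 7 sirtuins (vertical axes) for CR averaged over genotypes, for knockout against wildtype averaged over diets, and for the knockout response to CR minus the wildtype response. Points are limma estimates and lines are 95% confidence intervals from all 15 arrays. Sirt3 in the knockout stands at -0.96, the other estimates lie between -0.17 and 0.18, and Sirt3 has the widest interval in each panel.

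None of the other 6 sirtuins passed in limma for knockout against wildtype. Of all genes, 0% passed averaged over diets, 0% on control diet and 0.0166% on CR. The differences of these 6 in knockout mice, averaged over diets, lay between -0.058 for Sirt1 and 0.11 for Sirt4, with limma adjusted p from 0.701 to 0.977. Sirt2 stood at 0.019 (SE 0.047), Sirt5 at 0.025 (SE 0.044), Sirt6 at 0.049 (SE 0.075) and Sirt7 at -0.015 (SE 0.073). Their 95% confidence intervals ran at most from -0.17 to 0.24, which for these 6 signals correspond to ratios between 0.887 and 1.18. At an unadjusted p under 0.05 averaged over diets there was 1 of the 7 sirtuins, Sirt3, against 7.18% of all genes. On control diet Sirt1 stood at -0.14 (SE 0.079, limma adjusted p = 0.776) in knockout mice, the largest difference of the 6 within a diet, and without knockout control replicate 1 it was -0.082.

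The CR responses of the genotypes differed past the threshold for 0 of the 7 sirtuins and for 0% of all genes in limma, and 0 sirtuins had an unadjusted p under 0.05, against 5.71% of genes. The response in knockout mice was lower than in wildtype mice by estimate for 6 of the 7, at -0.082 for Sirt2, -0.051 for Sirt3, -0.011 for Sirt4, -0.013 for Sirt5, -0.13 for Sirt6 and -0.13 for Sirt7, each with an adjusted p of 0.957 or more. The median of the 7 was -0.051, against -0.025 over all genes tested, so genes in general leaned the same way. The count of 6 also rests on few arrays. Without the 2 germ cell arrays the estimates of Sirt3, Sirt4, Sirt5 and Sirt6 were positive and 2 of 7 were lower in knockout mice. Without the 4 arrays 3 of the 7 were lower. The SE was from 0.088 for Sirt5 to 0.36 for Sirt3, so only differences well above these sizes could have been seen.

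Once the group means were removed, 20 of the 21 pairs of sirtuins were positively correlated across the 15 arrays, and 2 passed a permutation test within groups after Benjamini-Hochberg adjustment over the 21 pairs. Sirt2 and Sirt5 had r = 0.75 (permutation p = 0.00113, adjusted p = 0.0237) and rho = 0.87 (adjusted p = 0.0208), with r = 0.72 without the 2 arrays farthest from the median of Sirt2. Sirt2 and Sirt4 had r = 0.79 (permutation p = 0.00299, adjusted p = 0.0314) and rho = 0.78 (adjusted p = 0.0750), with r = 0.71 without the 2 farthest arrays. Sirt4 and Sirt5 followed with r = 0.70 (permutation p = 0.0147, adjusted p = 0.0928). Wildtype control replicate 3, the array with the strongest germ cell transcripts, was the lowest of all 15 arrays for Sirt2, Sirt4, Sirt5 and Sirt6, and knockout CR replicate 2 was the highest for Sirt1, Sirt2 and Sirt4. Without wildtype control replicate 3 the adjusted p was 0.0716 for both pairs, with r = 0.76 for Sirt2 and Sirt5 and r = 0.74 for Sirt2 and Sirt4. The Sirt2 and Sirt5 pair also lost its call without wildtype control replicate 1 or 2 or knockout CR replicate 2, the Sirt2 and Sirt4 pair passed in only 5 of the 15 sets that left out 1 array, and no pair passed without the 4 arrays. The values of a pair come from the same array and share its RNA and normalization. How strongly pairs of other genes correlate on these arrays was not computed, so the 20 of 21 cannot be read as particular to sirtuins.

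**Figure D4:**
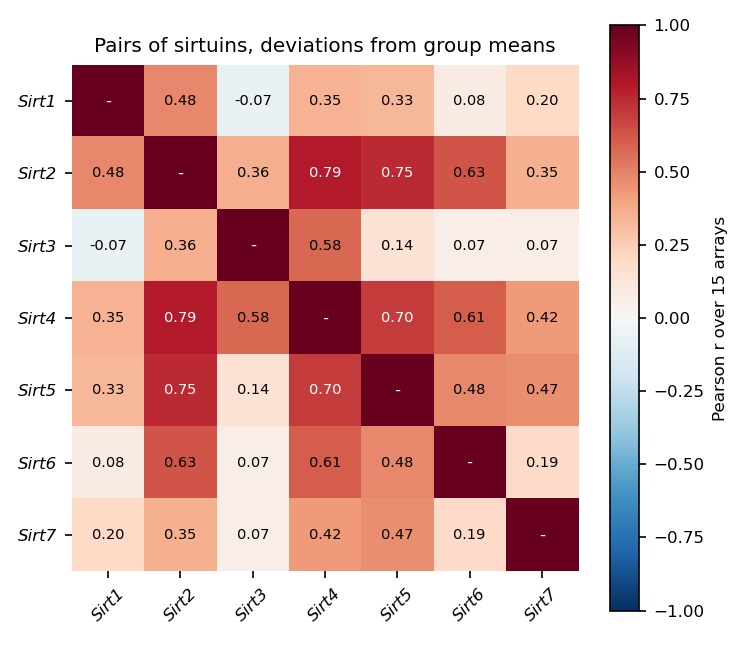
Pearson r between the sirtuins (rows and columns) over 15 arrays, computed on deviations of log2 values from the group means. Red is positive and blue negative, and the darkest cells off the diagonal are Sirt2 with Sirt4 (0.79) and Sirt2 with Sirt5 (0.75).

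For each sirtuin the 2 genes with the most similar values over the 15 arrays, of 12055 others, were taken by Pearson r as a description without a p, since each is the highest of many. For Sirt1 they were Thrap3, a splicing-associated protein gene, and Prxl2b (r of 0.91 and 0.83), and for Sirt2 Neurl1a, a ubiquitin ligase gene, and Tysnd1, a peroxisomal protease gene (0.91 each). For Sirt3 they were Fam114a1 and the adhesion receptor gene Adgrl1 (0.76 and 0.75), the lowest of the 7 sirtuins. For Sirt4 they were the proton channel gene Otop1 and the teneurin gene Tenm2 (0.89 and 0.88), and for Sirt5 the calcium pump gene Atp2a3 and Asap2 (0.88 each). For Sirt6 they were Orai3, a calcium channel gene, and Hectd3, a ubiquitin ligase gene (0.90 each), and for Sirt7 the cytochrome P450 gene Cyp4b1 and Syde1 (0.85 and 0.83). By ranks Asap2 was much less like Sirt5, at rho = 0.32, so that its r rests on few arrays. All these r keep the differences between group means. On deviations from the group means r was 0.40 for Fam114a1 and 0.53 for Adgrl1 with Sirt3. For the genes of the other sirtuins it lay between 0.75 and 0.95.

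Genes that make or use NAD, other deacetylases, regulators of sirtuins and their substrates were examined beside them. Of 75 tested genes in 5 lists, 0 passed in any of the 7 limma comparisons. For CR averaged over genotypes 5 were higher and 2 lower at an unadjusted p under 0.05 (9.33% of the 75, against 20.1% of all genes), and for knockout against wildtype averaged over diets 4 were higher and 0 lower (5.33%, against 7.18%). In the NAD synthesis list, 12 of 18 genes were tested and the smallest p over the 7 comparisons was that of Nmnat3, which encodes a mitochondrial NAD-synthesizing enzyme. On CR it lay from 6.07 to 6.29 on wildtype arrays and from 6.41 to 6.45 on knockout arrays, a difference of 0.25 (SE 0.085, limma adjusted p = 0.742). Of all genes, 1.84% were higher without overlap in that comparison. Among 12 tested of 16 genes of NAD consumption and transfer it was Tnks2, a poly-ADP-ribose polymerase gene, at 0.13 (SE 0.040, limma adjusted p = 0.119) on CR. Among the 11 zinc-dependent histone deacetylases, the other deacetylase family, it was Hdac2, whose CR response was -0.31 (SE 0.10, limma adjusted p = 0.824) in knockout relative to wildtype mice. Its means were 7.66 and 7.89 in wildtype and 7.79 and 7.71 in knockout mice on control diet and CR. Of 15 tested of 17 regulators it was Nrf1, an activator of mitochondrial genes, at 0.18 (SE 0.065, limma adjusted p = 0.157) on CR. Of 25 tested of 28 substrates of the mitochondrial sirtuins it was Mdh2, malate dehydrogenase of the TCA cycle, at 0.13 (SE 0.042, limma adjusted p = 0.626) in knockout mice.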

How the data were processed

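RNA from the gastrocnemius of 15 mice was labelled with biotin for Affymetrix arrays, per the labels' protocols. The deposited values are log2 intensities made with RMA, per the submitters' processing notes, a method that corrects background, normalizes by quantiles and summarises probes, and the log2 scale was read from their range. No source used here gives a version of RMA or a hybridisation or scan batch, and batches were not tested. Nothing was normalized again. Of 35556 probe sets, 21789 had 1 platform symbol. The 1621 with several symbols and the 12146 without a listing were not used. Each of 19938 genes was represented by its brightest probe set. A filter kept the 12056 genes whose mean reached 5.32, the 40th percentile over listed probe sets. Groups came from the genotype and diet labels.

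A linear model of the 15 arrays (limma 3.58.1, R 4.3.3) held a mean for each of the 4 groups and gave 7 two-sided contrasts, with Benjamini-Hochberg adjustment over all genes and a threshold of 0.05. Errors of log2 differences are moderated standard errors, and errors of means are SDs between arrays. Sirt3 was also tested by exact permutation of genotype within diets, and pairs of sirtuins by 100000 permutations within groups. The fit was tested on simulated data. Python 3.11.15 with matplotlib 3.10.9 drew the figures.

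The members, the gene lists and the tests were chosen with earlier results of these data known. Genes named were the 7 sirtuins, Psmd13, the member of each list with the smallest p (since none passed) and the 2 genes most like each sirtuin; Atf5 and Cox8b were named after their values were seen. Alternatives were no filter, a stricter filter (60th percentile), averaging a gene's probe sets or testing each singly, quantile normalization, centring, a trended robust prior, array weights, a replicate block, a fit without an interaction term or on only the groups compared, and leaving out each array, the 2 germ cell arrays or the 4 arrays over 2 log2 units for a list of another tissue. For the Sirt3 permutation, medians in place of means were also used. Leaving out each array for the pairs was added after seeing the data.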

Additional observations from a re-analysis of the deposited data

Results flagged for a closer look

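Sirt1 on wildtype CR replicate 2 stood apart from the other 3 arrays of its group. It read 6.88, and the nearest of the others read 6.79, so that the gap was 0.929 of the whole range of the group, above Dixon's critical value of 0.829 for 4 arrays. The range itself was small in this group, and 2 of its arrays held an identical value. It was 1 flag among 21 groups of 4 arrays tested, and chance flags about 1 in 20.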

How the results depend on the processing

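Of the 7 sirtuins, 0 passed in any of the 7 limma comparisons under any alternative, including those without 1 array, where the count stayed at 0. The smallest adjusted p of any sirtuin was 0.110, for Sirt3 in the knockout. The Sirt3 genotype difference stayed between -1.09 and -0.85 in limma, and its exact permutation p stayed below the threshold, from 0.000816 to 0.00571 without 1 array, at log2 differences from -1.06 to -0.85. With medians in place of means the exact permutation p was 0.0110 (27 of 2450 splits), at a difference of -0.97. Of 844 values for 32 single comparisons, 47 changed sign, and 21 comparisons never did. CR in wildtype mice left Sirt1 at -0.0091 with array weights, -0.0076 with centring, -0.0096 with the replicate number as a block, -0.012 when the 2 germ cell arrays were omitted and -0.0087 when all 4 were. CR averaged over genotypes left Sirt5 at -0.0048, -0.0015, -0.028 and -0.053 with weights, with centring, without the 2 and without the 4 arrays. In the knockout averaged over diets, Sirt7 stood at 0.0019 with weights, Sirt5 and Sirt6 at -0.0063 and -0.020 without the 2 arrays, and Sirt2, Sirt5 and Sirt6 at -0.021, -0.034 and -0.044 without the 4. The interaction of Sirt4 and Sirt5 was 0.021 and 0.026 with weights. That of Sirt3, Sirt4, Sirt5 and Sirt6 was 0.075, 0.062, 0.049 and 0.0061 without the 2 arrays, and that of Sirt3, Sirt4 and Sirt5 was 0.14, 0.073 and 0.099 without the 4. Where leaving out 1 array turned a sign, the ranges were for CR in wildtype Sirt1 from -0.022 to 0.010, for averaged knockout Sirt2 from -0.0086 to 0.035, Sirt5 from -0.014 to 0.057, Sirt6 from -0.0050 to 0.088, Sirt7 from -0.051 to 0.026, for interaction Sirt3 from -0.27 to 0.13, Sirt4 from -0.072 to 0.066, Sirt5 from -0.079 to 0.064, for averaged CR Sirt5 from -0.020 to 0.052, for CR in knockout Sirt6 from -0.015 to 0.080. The causes were not tested.

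Pairs of sirtuins past the threshold numbered 1 with centring or without removing group means, 0 without the 4 arrays, and 0 to 4 without 1 array. Replicate numbers showed no clear pairing of the arrays. Same-numbered arrays of different groups had a median r of 0.010 (21 pairs from -0.64 to 0.50, 7 over 0.1). Others had -0.0087 (63 pairs from -0.49 to 0.76, 16 over 0.1), and 2 of 15 arrays correlated best with their own number. With r spread so widely, these values cannot exclude a pairing. As a block the replicate numbers left 0 sirtuins called. With the filter at the 60th percentile 4 of the 7 sirtuins were tested, and Sirt3, Sirt5 and Sirt7 were not among them. Over all genes, the calls under settings that kept each array or left out several ranged from 1 to 23 for CR in wildtype mice, from 3 to 33 for CR in knockout mice, from 5 to 189 for CR averaged, from 0 to 4 for knockout on control diet, from 0 to 13 for knockout on CR, from 0 to 1 for knockout averaged, from 0 to 4 for the interaction, against 15, 8, 129, 0, 2, 0 and 0 in the same order. Without 1 array they ranged from 4 to 33, from 0 to 18, from 23 to 259, from 0 to 8, from 0 to 4, from 0 to 7, from 0 to 5 in that order. Probe sets near the filter value, as Sirt7 and as Sirt3 in knockout mice, limit how low a signal can be measured.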

Other observations

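Of the 7 sirtuins, 3 had deposited values that were identical to the last digit on several arrays. Sirt5 read 6.15116 on 4 arrays, Sirt6 read 6.77095 on 4 arrays and Sirt1 read 6.78632 on 3 arrays. Such ties occurred in 13359 of 35556 probe sets, or 37.6%.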
